A study of Mus musculus with 6 samples.

Results

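The genes described here build the brush border, the carpet of microvilli on the luminal face of intestinal epithelial cells (IECs). The 10 members are a named set, read from the gene symbol column of the count table, each symbol with its row with most counts: Vil1, Espn and Eps8 of the actin core, Ezr and Myo1a, which tie that core to the membrane, Cdhr2, Cdhr5, Ush1c and Myo7b of the intermicrovillar adhesion complex, and the scaffold gene Pdzk1. They were 10 of 55487 genes listed, and 9 of them, all but Pdzk1, were among the 14650 genes tested after the filter on low counts. In a microvillus, parallel actin filaments are bundled by villin, espin and other bundling proteins, class 1 myosins and ezrin join the bundle to the plasma membrane, and protocadherins at the tips of neighbouring microvilli bind each other and hold them in an even array. The colon has this structure at its surface, where absorptive colonocytes take up salt and water, and it is assembled as cells leave the crypt and mature.

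The RNA came from IECs released with EDTA from the colons of mice given dextran sodium sulphate (DSS), a detergent-like polymer in drinking water that injures the colonic epithelium. Of the 6 libraries, 3 came from Nsd2 f/f mice, which carry loxP-flanked alleles of the histone methyltransferase gene Nsd2 (genotype label NSD2-FF, title WT), and 3 from Nsd2 Vil-KO mice, which carry the same alleles and Villin-Cre (genotype label NSD2-FF-VILCRE). Per the study's methods, DSS was given at 2% for 5 days to mice 2 months of age; all 6 libraries were labelled as DSS-treated, and no untreated library was analysed here. The Villin promoter that drives Cre is that of Vil1, so the gene that marks the deleted cells is itself a member, and loss of Nsd2 cannot be told apart from the presence of Cre, which the controls lacked. The comparison asks whether brush border transcripts differ between DSS-treated epithelia with and without Nsd2. Neither the labels nor the methods say that each library came from 1 mouse, so the p-values measure the spread between these libraries.

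The libraries held 15439123 to 20350539 counts, of which the 10 members took 0.353% to 0.489%. Nsd2, the targeted gene, measured 47.9, 51.2 and 24.6 CPM (counts scaled to a common library size) in replicates 1, 2 and 3 of Nsd2 f/f, the order kept throughout, and 24.2, 10.4 and 20.8 CPM in those of Nsd2 Vil-KO. In CPM scaled by TMM, the scaling used here, the genotypes were apart. Even so, Nsd2 f/f replicate 3, at 24.6 CPM, lay just above the highest Nsd2 Vil-KO library. By totals alone the genotypes overlapped. Nsd2 had 304 of 15439123 counts in Nsd2 f/f replicate 3 and 496 of 18605210 in Nsd2 Vil-KO replicate 1. The exact permutation p was 0.1 with TMM and 0.3 by totals alone. The log2 fold change of Nsd2 was -1.16 (SE 0.39, edgeR's quasi-likelihood test, adjusted p = 0.992). Nsd2 missed the looser criterion described below without Nsd2 f/f replicate 1 or 2 and when libraries were scaled by their totals alone. Nsd2 f/f replicate 3 and Nsd2 Vil-KO replicate 2 stood apart from the other 4 libraries. Xist stood at 278 and 181 CPM in them and at or below 0.277 CPM in the others, and mitochondrial genes took 19.6% of the counts of Nsd2 f/f replicate 3 and 5.51% to 9.13% elsewhere. As for the epithelial label, 7 epithelial markers summed to 11147 to 16828 CPM, whereas 8 small-intestinal markers summed to at most 37.2 CPM. The 8 squamous markers summed to at most 19.0 CPM, in Nsd2 Vil-KO replicate 2, where Dsg3 measured 17.2 CPM. Of these 8, Krt5, Krt4 and Sprr3 had no count in any library, and Krt14, Krt13 and Dsg3 had more than 3 counts in 6, 5 and 5 libraries. Leukocyte markers were uneven, at 24.8 to 757 CPM in Nsd2 f/f and 66.5 to 1002 CPM in Nsd2 Vil-KO. The 1002 CPM, in Nsd2 Vil-KO replicate 2, were mostly S100a8 (574 CPM) and S100a9 (405 CPM). No other leukocyte marker exceeded the 5.71 CPM of Ptprc in that library, and Ptprc measured 30.7 CPM in Nsd2 f/f replicate 1. Fibroblast markers reached 263 CPM in Nsd2 f/f replicate 1. Mature surface colonocyte markers summed to 7739 CPM in Nsd2 f/f replicate 3 and to 2537 to 3636 CPM in the other 5 libraries. Goblet cell markers were apart between the genotypes in their sum, at 14098 to 16375 CPM in Nsd2 f/f and 9866 to 11062 CPM in Nsd2 Vil-KO. Singly, 1 of the 7 did not overlap between genotypes, against 9.90% of all tested genes. All 7 had negative log2 fold changes (median -0.57). Of them, 1 met the looser criterion described below, which took in 3.29% of all tested genes. The part of the goblet marker difference in the members' CPM was not tested. In such bulk samples, fewer cells of a type and less RNA per cell cannot be told apart.

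The proximal promoters of 3 members are shown because these genes anchor the comparison of profiles described below: that of Vil1, whose regulatory sequence also drives Cre, that of Cdhr5, the member whose profile lay nearest to that of Vil1, and that of Ezr, the member whose profile lay farthest from it. Each is the stretch of 250 bases just before the RefSeq gene start on GRCm38.p6, written 5′ to 3′ on the gene's strand. Capitals in the Vil1 sequence (chr1:74409134-74409383, plus strand) mark a CArG box, in the Cdhr5 sequence (chr7:141276787-141277036, minus strand) the hexamer TTTATG read on the opposite strand, and in the Ezr sequence (chr17:6782781-6783030, minus strand) every CG.
Vil1: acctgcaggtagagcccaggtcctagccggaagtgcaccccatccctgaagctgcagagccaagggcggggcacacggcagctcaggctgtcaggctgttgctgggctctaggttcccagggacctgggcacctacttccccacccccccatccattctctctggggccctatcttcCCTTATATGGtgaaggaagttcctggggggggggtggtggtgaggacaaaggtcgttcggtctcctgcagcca
Cdhr5: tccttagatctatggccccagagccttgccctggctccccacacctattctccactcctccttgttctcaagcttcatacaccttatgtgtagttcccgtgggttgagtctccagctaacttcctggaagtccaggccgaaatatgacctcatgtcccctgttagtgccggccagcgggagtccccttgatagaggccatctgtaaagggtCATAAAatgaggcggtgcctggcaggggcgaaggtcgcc
Ezr: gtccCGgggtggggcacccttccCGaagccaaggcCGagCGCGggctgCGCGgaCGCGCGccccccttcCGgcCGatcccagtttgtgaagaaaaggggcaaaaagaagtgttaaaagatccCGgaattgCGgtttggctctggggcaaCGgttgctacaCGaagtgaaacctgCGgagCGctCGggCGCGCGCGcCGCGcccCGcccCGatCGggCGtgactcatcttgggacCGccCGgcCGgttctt
The CArG box lay 63 bases before the Vil1 start, and 1.48% of the 32544 mouse promoter windows in the RefSeq table (250 bases before to 50 after a start, both strands searched) held one. The hexamer lay 33 bases before the Cdhr5 start and occurred in 10.8% of windows, the window of Espn among them. The Ezr sequence held 32 CG, more than 95.4% of windows of the same length, against a median of 6, and the Vil1 and Cdhr5 sequences held 5 and 7. Of the 10 members, 8 had an entry, with 11 windows in all, and none of these held CAAAGTCCA or TATAAA, which occurred in 0.387% and 12.3% of windows. These are matches of letters only, and nothing in the counts measures binding.

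Per kilobase of exon, the members spanned a wide range of levels. Cdhr5 was highest at 251 ± 62.1 CPM per kb (SD, n = 6), followed by Vil1 at 241 ± 48.8, Myo1a at 219 ± 29.9, Ezr at 196 ± 69.0 and Cdhr2 at 130 ± 33.7 CPM per kb. Neighbours among these 5 were not ordered alike in every library: Cdhr5 was above Vil1 in 4 of 6, and each of the next 3 was above its neighbour in 5 of 6. Cdhr2 was above Ush1c, at 53.4 ± 18.1 CPM per kb, in all 6 libraries, and Ush1c above Myo7b, at 28.3 ± 5.32, in all 6. Eps8 at 19.8 ± 4.31 and Espn at 9.43 ± 5.62 CPM per kb were the least abundant of those tested, although Eps8 rose to 53.4 and Espn to 16.9 CPM per kb when the longest transcript replaced the union of exons as length. Pdzk1, a PDZ scaffold of apical transporters, was at 0, 0 and 1 counts in Nsd2 f/f and 3, 4 and 1 counts in Nsd2 Vil-KO. A floor of 3 counts was exceeded in 1 library only and 37.5% of its exon bases overlap Gpr89 on the other strand, so no fold is given for it.

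No member passed the test. By adjusted p below 0.05, edgeR called 0 of the 9 tested members and 0 of all 14650 genes (0%), DESeq2 4 genes (0.0273%) but no member, and limma-voom 0 genes. The looser criterion, a fold change above 1.2 with an unadjusted p below 0.05, took in 482 genes or 3.29% of those tested, and 0 of the 9 members. It is 1 reading of the study, whose results give a fold change above 1.2 with a p-value below 0.05. The study's methods give an adjusted p below 0.05. By the same criterion limma-voom with quality weights took in 2 members, Eps8 and Myo7b, and 9.83% of all genes, edgeR with Xist as a covariate took in 1 member, Eps8, and 7.82% of all genes, and edgeR without Nsd2 f/f replicate 1 also took in Eps8 alone, with 3.12% of all genes. The genotypes did not overlap in CPM for 9.90% of tested genes and for 0 of the 9 members. Of the members, 3 had a positive and 6 a negative log2 fold change, with a median of -0.10 against 0.00 over all tested genes, and the median SD within a genotype was 0.361 on the log2 scale, against 0.312 over genes at or above the members' level. The exact two-sided permutation test of 3 against 3 libraries cannot go below p = 0.1, and no member reached it.

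**Figure D1:**
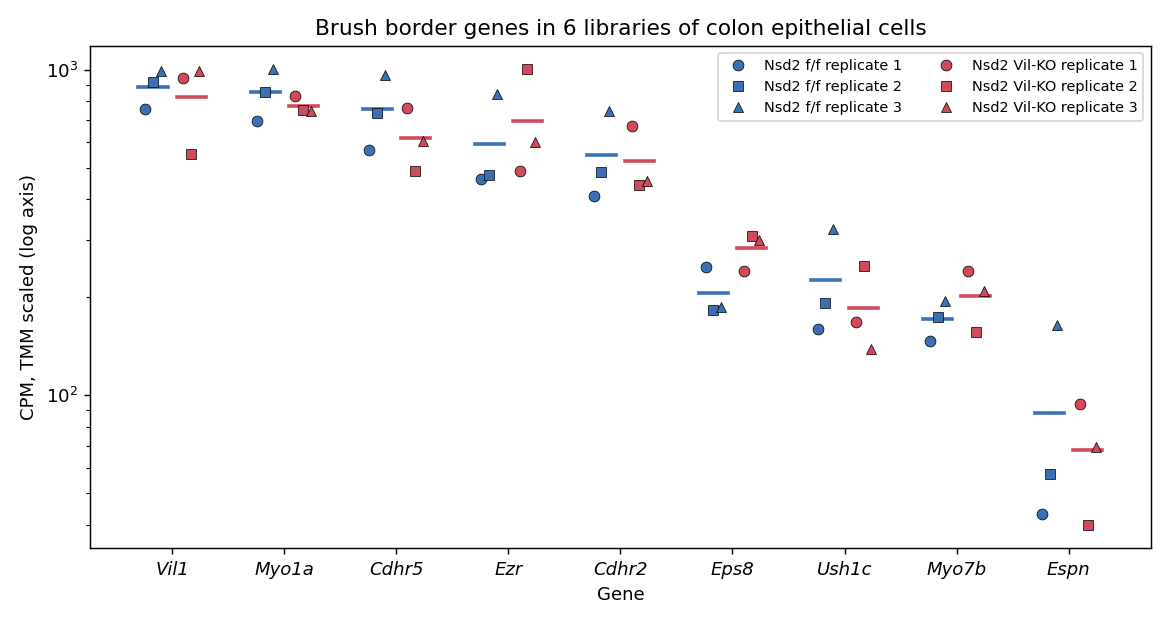
TMM-scaled CPM (log axis) of the 9 tested members in each of the 6 libraries. Symbols mark the replicate, colours the genotype and short lines the genotype means. On this scale the genotypes overlap for every member, and Nsd2 f/f replicate 3 is the highest point for 6 of them.

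Vil1 (chromosome 1, 74409376 to 74435559 on GRCm38) encodes villin, which bundles actin and, at high calcium, severs it. It measured 755, 917 and 988 CPM in Nsd2 f/f and 943, 549 and 988 CPM in Nsd2 Vil-KO. Nsd2 Vil-KO replicate 2 was the lowest library, and the other 2 Nsd2 Vil-KO libraries lay inside the range of the controls. With all 6 libraries its log2 fold change was -0.10 (SE 0.29, 95% CI -0.79 to 0.59, edgeR adjusted p = 0.996), and it was 0.00 when libraries were scaled by their totals alone and 0.12 without Nsd2 Vil-KO replicate 2. The interval spans a fold of 0.577 to 1.51, so these libraries could not have resolved a smaller change of the gene whose promoter drives Cre. Whether the Cre transgene carries any Vil1 exon is not given in the sources used here.

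Espn encodes espin, a second actin bundler that sets microvillus length. It was the most variable member, with a 4.11-fold range over the libraries: 43.3, 57.3 and 164 CPM in Nsd2 f/f and 94.1, 39.9 and 69.5 CPM in Nsd2 Vil-KO. The highest and the lowest value were those of the same libraries that stood apart in Xist. For Espn the log2 fold change was -0.38 (SE 0.54, 95% CI -1.65 to 0.90, edgeR adjusted p = 0.993), and it turned to 0.43 without Nsd2 f/f replicate 3.

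Eps8, which caps the growing ends of actin filaments at the microvillus tip, came nearest to a difference. It measured 248, 183 and 186 CPM in Nsd2 f/f and 241, 308 and 299 CPM in Nsd2 Vil-KO. Nsd2 f/f replicate 1 and Nsd2 Vil-KO replicate 1 crossed, at 248 and 241 CPM, and the other libraries of each genotype were apart. Its log2 fold change was 0.46 (SE 0.21, 95% CI -0.05 to 0.96, edgeR p = 0.0689, adjusted p = 0.992), and the exact permutation p was 0.2. It remained positive with any 1 library left out, at 0.38 to 0.61.

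Ezr encodes ezrin, the linker that, when phosphorylated, holds actin to the apical membrane. It measured 461, 476 and 842 CPM in Nsd2 f/f and 487, 1004 and 601 CPM in Nsd2 Vil-KO. The highest value of each genotype was in the library that stood apart. For Ezr the log2 fold change was 0.23 (SE 0.37, 95% CI -0.65 to 1.11, edgeR adjusted p = 0.993), and it was -0.12 without Nsd2 Vil-KO replicate 2. Ezr took 28.6% of the members' summed per-kilobase level in that library and 12.5% to 17.2% in the other 5, while Vil1 took 14.5% there and 18.7% to 25.4% elsewhere.

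Myo1a, the motor of the lateral bridges between actin core and membrane, was the steadiest member, with a 1.45-fold range. It measured 693, 854 and 1006 CPM in Nsd2 f/f and 828, 751 and 748 CPM in Nsd2 Vil-KO. All 3 Nsd2 Vil-KO libraries lay within the range of the controls. The log2 fold change was -0.13 (SE 0.23, 95% CI -0.69 to 0.42, edgeR adjusted p = 0.995).

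The intermicrovillar adhesion complex joins 2 protocadherins, CDHR2 and CDHR5, to the cytoplasmic scaffold harmonin (Ush1c) and the motor myosin 7B (Myo7b). Cdhr2 measured 410.0, 486 and 747 CPM in Nsd2 f/f and 671, 442 and 454 CPM in Nsd2 Vil-KO. Its partner Cdhr5 measured 566, 738 and 962 CPM in Nsd2 f/f and 760.0, 488 and 604 CPM in Nsd2 Vil-KO. Both were highest in Nsd2 f/f replicate 3 in TMM-scaled CPM, and the genotypes overlapped. The log2 fold change of Cdhr2 was -0.07 (SE 0.31, 95% CI -0.79 to 0.66, edgeR adjusted p = 0.999), or 0.05 with libraries scaled by their totals alone. That of Cdhr5 was -0.29 (SE 0.29, 95% CI -0.97 to 0.39, edgeR adjusted p = 0.992) and remained negative with any 1 library left out, at -0.47 to -0.08.

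Ush1c measured 160, 192 and 325 CPM in Nsd2 f/f and 168, 250 and 139 CPM in Nsd2 Vil-KO. Its 2 highest values were those of the 2 libraries that stood apart. The log2 fold change was -0.28 (SE 0.34, 95% CI -1.08 to 0.52, edgeR adjusted p = 0.992). Myo7b measured 147, 174 and 195 CPM in Nsd2 f/f and 241, 156 and 209 CPM in Nsd2 Vil-KO. Nsd2 Vil-KO replicates 1 and 3 were above every control and replicate 2 was among the controls. Its log2 fold change was 0.23 (SE 0.23, 95% CI -0.30 to 0.77, edgeR adjusted p = 0.992). Of the remaining subunits of the complex, the scaffold gene Anks4b had a log2 fold change of -0.36 (SE 0.22) and the light chain gene Calml4 one of -0.41 (SE 0.31), and neither of the 2 passed the looser criterion.

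**Figure D2:**
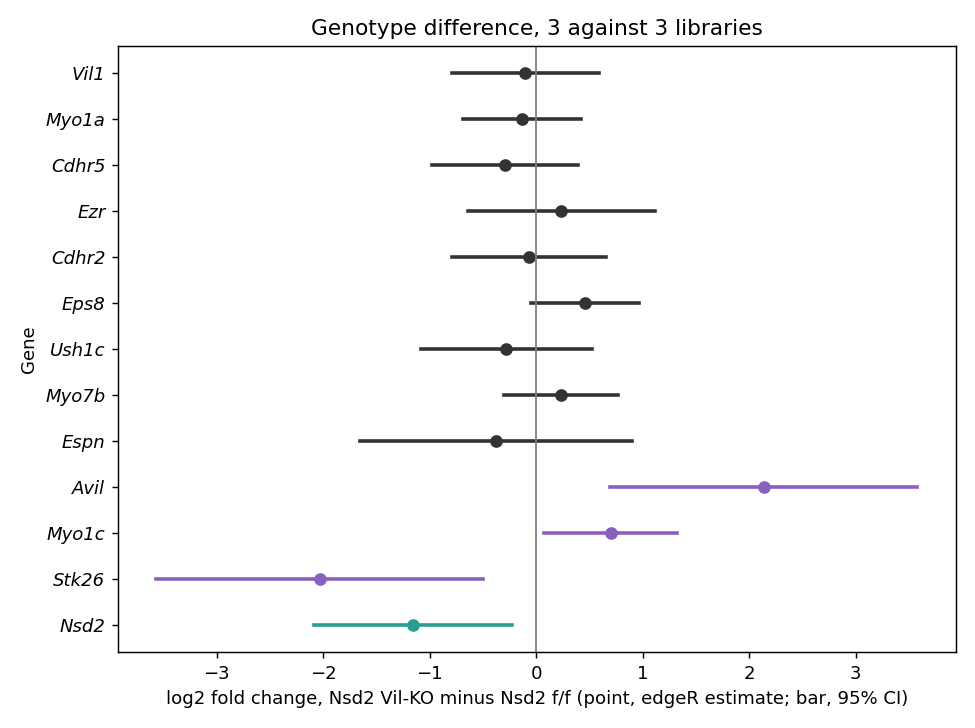
Log2 fold change (Nsd2 Vil-KO minus Nsd2 f/f, x axis) of the 9 tested members, of 3 other brush border genes past the looser criterion and of Nsd2. Points are edgeR estimates from 3 against 3 libraries and bars 95% confidence intervals. The intervals of all 9 members include 0, and that of Nsd2 does not. Avil, Myo1c and Stk26 were chosen by an unadjusted p below 0.05 in this same fit, so their intervals leave out 0 by that choice.

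Ratios between members within a library do not depend on how libraries are scaled. Per kilobase, Myo7b stood to Vil1 as 0.105, 0.102 and 0.106 in Nsd2 f/f and as 0.137, 0.152 and 0.114 in Nsd2 Vil-KO. The controls were closely alike, and all 3 Nsd2 Vil-KO libraries were higher. Of the 36 pairs among the 9 members, 3 had ratios that did not overlap between genotypes, or 8.33%, against 10.3% of all pairs of tested genes at or above the level of the lowest tested member: Vil1 to Myo7b, Cdhr5 to Myo7b and Ush1c to Ezr, each lower in Nsd2 Vil-KO. Each of these had the smallest exact permutation p that 6 libraries allow, 0.1, which became 0.982 after Benjamini-Hochberg adjustment over the 36 pairs, so no pair passed a threshold of 0.05. The 3 pairs were singled out after their values were seen, and pairs share genes.

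The libraries differed in which members they held most of. In TMM-scaled CPM, Nsd2 f/f replicate 3 was the highest of the 6 libraries for 6 of the 9 members. These were Vil1, Cdhr2, Cdhr5, Myo1a, Ush1c and Espn. The library was also highest for 23.7% of all tested genes (29.3% of those at or above the members' level). Its TMM factor was 0.803, against 0.887 to 1.104 in the others. Scaled by totals alone, Vil1, Cdhr2, Cdhr5 and Myo1a were higher in Nsd2 Vil-KO replicate 1, whereas Ush1c and Espn were not. Of all counts, the members took 0.434% in Nsd2 f/f replicate 3 and 0.489% in Nsd2 Vil-KO replicate 1. Nsd2 f/f replicate 3 had the highest sum of mature colonocyte markers, 7739 CPM. It had the lowest of proliferating crypt markers, 206 CPM against 373 to 966 CPM in the others. In TMM-scaled CPM, Nsd2 Vil-KO replicate 2 was lowest for Vil1, Cdhr5 and Espn and highest for Ezr and Eps8. It was the lowest library for 29.2% and the highest for 28.7% of all tested genes. The part of these marker and library differences in the members' levels was not tested.

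**Figure D3:**
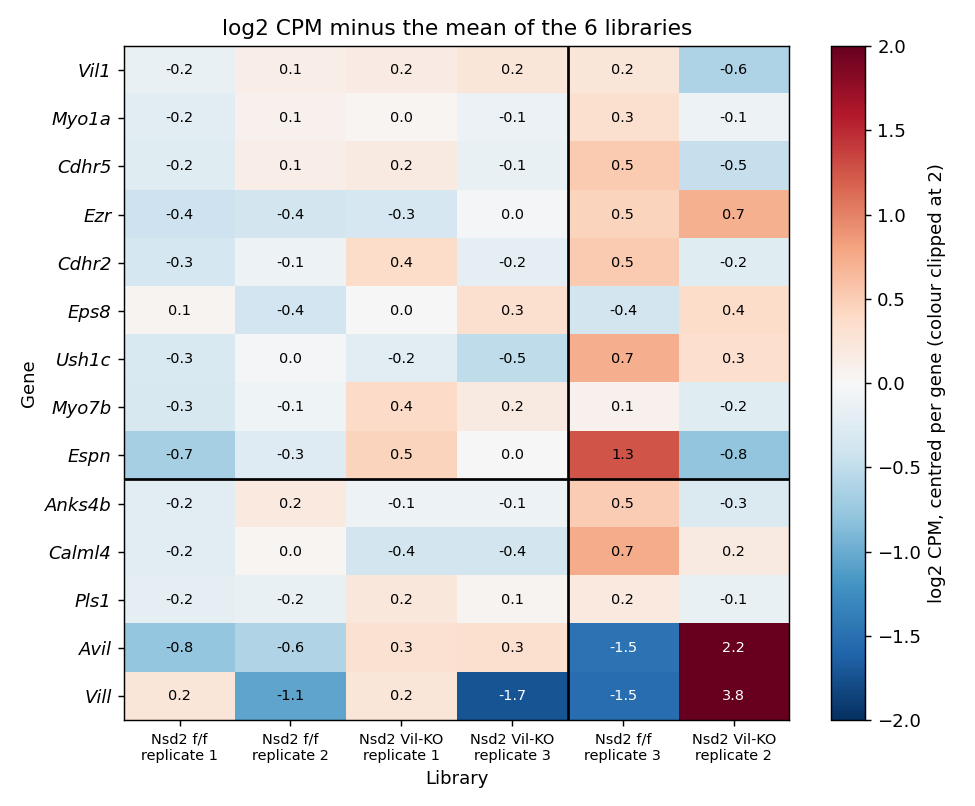
Log2 CPM of each gene (y axis) minus its mean over the 6 libraries (x axis), with the 4 libraries that were alike left of the vertical line and the 2 that stood apart right of it; genes below the horizontal line are not members. Espn is 1.3 above its mean in Nsd2 f/f replicate 3 and 0.8 below it in Nsd2 Vil-KO replicate 2, and Vill is 3.8 above its mean in the latter.

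As a description over 6 libraries that share these differences, the profile of each gene was compared with that of Vil1 by the root mean square distance of log2 CPM after centring on the gene's own mean. Cdhr5 at 0.209 and Myo7b at 0.219 lay within the nearest 8.17% and 9.39% of 10562 genes, Myo1a at 0.26 within the nearest 15.5% and Cdhr2 at 0.299 within the nearest 22.6%. Espn, Eps8, Ush1c and Ezr lay between the 65.5th and the 78.8th percentile. The 10562 genes had a mean of at least 5 CPM but were not filtered on variation, so a gene that hardly varies can also rank near Vil1. These percentiles therefore cannot tell a shared profile from low variation. On the log2 scale the SD within a genotype was 0.199 for Myo1a and 0.268 for Myo7b, against 0.361 for Vil1. It was 0.353 for Cdhr5 and 0.395 for Cdhr2. A further comparison took 7796 other genes of at least 5 CPM whose SD of log2 CPM was above or somewhat below that of Vil1. The nearest were Tmc4 at 0.06, Arid3b at 0.064, Dclre1a at 0.065, Uaca at 0.067 and Wrap53 at 0.068. Tmc4, a transmembrane channel-like gene, measured 213, 259 and 292 CPM in Nsd2 f/f and 295, 162 and 273 CPM in Nsd2 Vil-KO, low in Nsd2 Vil-KO replicate 2 as Vil1 was.

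Of 60 other brush border genes in 8 lists, 56 were tested. The looser criterion took in 3 of these 56, against 3.29% of all tested genes, and each of the 3 had an edgeR adjusted p of 0.992. So small a count is not read as a result about brush border genes. In the actin core list 1 of 15 tested genes was called, Avil, which encodes advillin, a villin relative known from tuft cells and sensory neurons. It measured 3.82, 4.31 and 2.34 CPM in Nsd2 f/f and 8.0, 30.4 and 8.12 CPM in Nsd2 Vil-KO. All Nsd2 Vil-KO libraries were above all controls, replicate 2 by the widest margin. The log2 fold change was 2.13 (SE 0.61, 95% CI 0.69 to 3.58, edgeR adjusted p = 0.992) and it was 1.19 without that library. Among the motors 1 of 7 was called, Myo1c, a widely expressed class 1 myosin, at 119, 106 and 80.3 CPM in Nsd2 f/f and 137, 222 and 136 CPM in Nsd2 Vil-KO (log2 fold change 0.70, SE 0.27, edgeR adjusted p = 0.992). It no longer met the criterion without Nsd2 f/f replicate 2, Nsd2 f/f replicate 3 or Nsd2 Vil-KO replicate 2. Among the relatives of ezrin and the kinases of this family 1 of 5 was called, in the other direction: Stk26, a kinase that phosphorylates ezrin, measured 5.20, 2.48 and 6.06 CPM in Nsd2 f/f and 0.926, 0.333 and 2.04 CPM in Nsd2 Vil-KO. Its log2 fold change was -2.03 (SE 0.65, edgeR adjusted p = 0.992), at levels that left 1 Nsd2 Vil-KO library near the floor of 3 counts (0.166 CPM in that library), and it missed the criterion without Nsd2 Vil-KO replicate 1.

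None of the tested genes passed the criterion among PDZ scaffolds (0 of 4), apical transporters that bind them (0 of 5), apical hydrolases (0 of 10) and apical trafficking genes (0 of 8). Of the most abundant per kilobase in these lists, the scaffold gene Slc9a3r1 had a log2 fold change of -0.33 (SE 0.32), the chloride-bicarbonate exchanger gene Slc26a3 one of -0.52 (SE 0.63), the disaccharidase gene Mgam one of 0.34 (SE 0.26) and the recycling endosome GTPase gene Rab11a one of 0.05 (SE 0.21). In the actin core, Actb and Actg1 were the most abundant, with log2 fold changes of -0.12 (SE 0.28) and 0.30 (SE 0.32). Vill, another villin relative, singled out here after its values were seen, measured 17.2, 7.03 and 5.09 CPM in Nsd2 f/f and 17.3, 207 and 4.39 CPM in Nsd2 Vil-KO. Only Nsd2 Vil-KO replicate 2 was high, and the log2 fold change fell from 2.95 (SE 1.30) to 0.14 without it.

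The 2 libraries that stood apart fell on either side of the comparison, so it was also made without both, with 2 libraries of each genotype. Of 15030 genes, 11.0% then passed the looser criterion and 0% had an adjusted p below 0.05 in edgeR. Of the members, 8 of 9 then had a positive log2 fold change, with a median of 0.23, and 2 of 9 met the criterion, Espn at 0.72 (SE 0.21, edgeR adjusted p = 0.375) and Myo7b at 0.50 (SE 0.13, edgeR adjusted p = 0.366). Vil1, Espn, Ezr and Myo7b were higher in both Nsd2 Vil-KO libraries than in both controls, which was so for 21.3% of all tested genes. For Vil1 the log2 fold change was 0.22 (SE 0.13, 95% CI -0.10 to 0.54), and Ush1c was the one member with a negative value, -0.18 (SE 0.15). In the same 4 libraries all 7 motors had positive values and 4 met the criterion: Myh14, Myh9, Myo1c and Myo1d, nonmuscle myosins of the terminal web and class 1 myosins, with log2 fold changes of 0.45, 0.46, 0.29 and 0.30. Of the 5 apical transporters 2 met it, the sodium-hydrogen exchanger gene Slc9a3 at 1.01 (SE 0.11, edgeR adjusted p = 0.119) and Slc26a3 at 0.75 (SE 0.12, edgeR adjusted p = 0.182). Slc9a3 measured 115 and 125 CPM in these controls and 229 and 252 CPM in these Nsd2 Vil-KO libraries, and 284 CPM in the control that was left out. Slc26a3 measured 1424.5 CPM in the control left out and 229 CPM in the Nsd2 Vil-KO library left out. With all 6 libraries its log2 fold change was -0.52. Genes of other lists went the other way in the 4 libraries: 2 of the 5 relatives and kinases of ezrin met the criterion, both lower, Rdx at -0.51 and Stk26 at -1.40, and the median of that list was -0.51. In the actin core list 3 of 15 met it, Avil at 1.00 and Pls1 at 0.32 higher and Twf2 at -0.42 lower. Of the 4 scaffold genes 1 (Pdzd3, 0.57) and of the 8 trafficking genes 1 (Myo5b, 0.36) met it, and none of 11 apical hydrolases nor of the 2 other adhesion complex subunits did. Rdx, Pls1, Twf2, Pdzd3 and Myo5b are named here because they met the criterion in these 4 libraries.

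**Figure D4:**
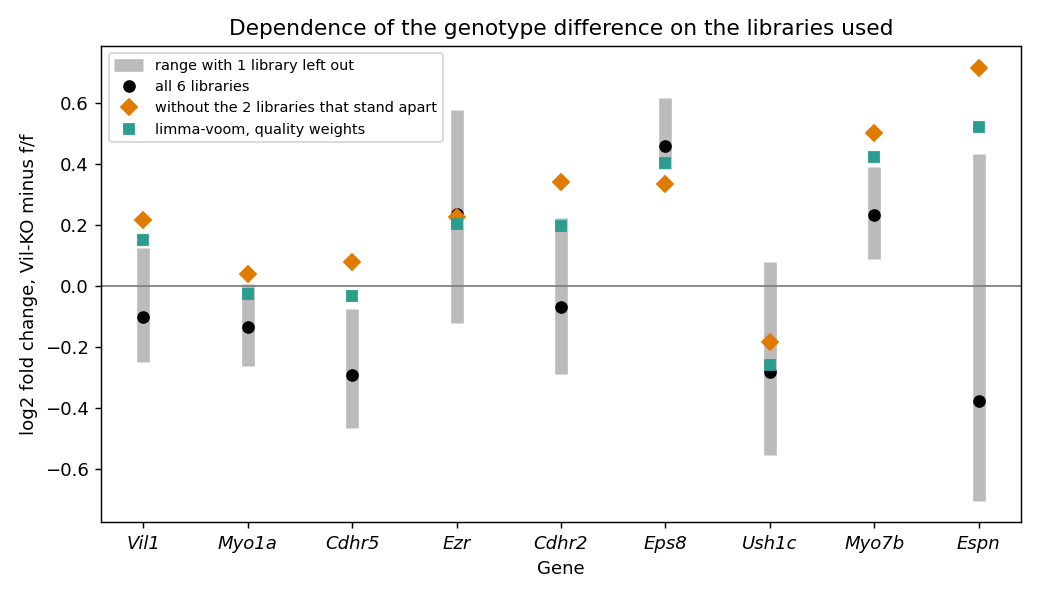
Log2 fold change (y axis) of the 9 tested members with all 6 libraries (circles), without the 2 that stood apart (diamonds), in limma-voom with quality weights (squares), and over the 6 fits that each leave out 1 library (grey bars, lowest to highest). Espn moves from -0.38 to 0.72 and Vil1 from -0.10 to 0.22 when the 2 libraries are left out, whereas Eps8 and Myo7b are above 0 throughout.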

How the data were processed

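Counts of reads per gene were deposited by the authors as whole numbers without normalisation, with 6 sample columns and Ensembl identifiers; the submitters' processing notes name HISAT2 and mm10, and the program that counted reads and its use of strand were not given in the sources used here. The library kit named in the labels differs from that in the methods. Genotypes were taken from the labels. The genotypes were compared in edgeR 4.0.16 under R 4.3.3 (TMM, filterByExpr by genotype, robust quasi-likelihood fit, Benjamini-Hochberg adjustment over 14650 genes); fold changes and p-values came from this fit and CPM were TMM-scaled. DESeq2 1.42.0, limma-voom 3.58.1 and the other alternatives were run on the same counts. The study itself tested FPKM with Ballgown, which counts do not allow. The fit was also run on simulated counts in which no library stood apart, so that run does not cover the libraries that did so here. Exon lengths and positions were those of GENCODE vM21 (GRCm38), which matched 99.4% of identifiers, and promoters those of RefSeq (GRCm38.p6). Protein sequences were not used here.

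Exact permutation tests used log2(CPM + 1). Levels are CPM per kilobase of merged exons. The 3-count floor corresponded to 0.146 to 0.242 CPM and covers counting error only. The members, the gene lists and the alternatives were chosen with earlier results of these data known. Named were Nsd2, the 10 members, other listed genes past the looser criterion or among the 3 most abundant per kilobase of their list, and the 5 genes nearest to Vil1 in profile; any exception is stated where it occurs. Replicate numbers were not treated as pairs, since libraries of the same number did not deviate together in all 3 cases (r = 0.322, -0.35 and -0.108). No 2 libraries agreed within sampling noise. Exons of Vil1, Ush1c and Ezr overlap genes on the other strand by 49, 120 and 4 bases, and those of Avil overlap Tsfm.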

Additional observations from a re-analysis of the deposited data

How the results depend on the processing

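Of 153 log2 fold changes of members under 17 alternatives, 130 kept their direction and their side of the threshold, 5 came to pass the unadjusted threshold and 18 changed sign. The sign changed in limma-voom for Vil1 (0.15), Cdhr2 (0.20) and Espn (0.52); with libraries scaled by their totals for Vil1 (0.0002) and Cdhr2 (0.053); and without both libraries that stood apart for Vil1 (0.22), Cdhr2 (0.34), Cdhr5 (0.077), Myo1a (0.038) and Espn (0.72). With 1 library left out, Vil1 ranged from -0.25 to 0.12, Cdhr2 from -0.29 to 0.22, Myo1a from -0.26 to 0.0063, Ush1c from -0.55 to 0.079, Espn from -0.70 to 0.43 and Ezr from -0.12 to 0.58. Members past the looser criterion numbered 2 in limma-voom (Eps8, Myo7b), 2 without both libraries (Espn, Myo7b), 1 with Xist as a covariate (Eps8) and 0 to 1 with 1 library left out (Eps8 without Nsd2 f/f replicate 1). The members' median was 0.226 without both libraries and -0.24 to 0.22 with 1 left out.

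Over all genes the looser criterion took in 482, 241 in each direction. It took in 861 (377 higher, 484 lower) without a filter on low counts, 1440 (682 and 758) in limma-voom, 1646 (841 and 805) without both libraries, 1145 (547 and 598) with Xist as a covariate, and 323 to 769 (117 to 364 higher, 171 to 405 lower) with 1 library left out. DESeq2 called 4 genes by adjusted p. With the replicate number as a block, which the numbers do not justify as a pairing, 303 genes (133 higher) and no member passed. The cause of these changes was not tested. Leaving out the 20 most counted genes, chosen after seeing the data, changed no member's call. With 3 libraries a genotype and a biological coefficient of variation of 41.2%, the members' 95% intervals differed in width. On the log2 scale the narrowest was that of Eps8, 0.969-fold to 1.95-fold, and the widest that of Espn, 0.319-fold to 1.86-fold.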
